A study of Mus musculus with 6 samples.

Results

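The cadherins described here are 8 genes, Cdh1, Cdh2, Cdh4, Cdh6, Cdh8, Cdh10, Cdh11 and Cdh13, of 20263 genes that could be named in the table. They were taken as every row whose RefSeq transcript carries one of these symbols. This gave 9 of 32025 rows, 1 for each gene and 2 for Cdh8, and all 8 genes were found. The symbols were picked with the difference between the groups already known, in particular a higher value of Cdh11, so the differences of these rows are given as a description and not as a test.

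The groups were murine neural stem cells that received a miR-128 mimic by nucleofection (3 arrays) and such cells that received miR-Control (3 arrays). The cells of both groups came from CD-1 albino embryos at E14.5, grew as neurospheres in proliferation conditions, went through the same electrical transfection and gave total RNA 72 h later. The design calls the arrays of a group biological triplicates, and the share of cells that took up the RNA is not given in the sources used here. The comparison asks which transcripts differ once these cells, which do not normally express miR-128, carry it.

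Classical cadherins are calcium-dependent adhesion proteins of the cell surface. Their extracellular repeats bind cadherins on the neighbouring cell, and their cytoplasmic tails bind catenins, which link the junction to actin. In the embryonic forebrain N-cadherin (Cdh2) holds the adherens junctions of radial glia at the ventricular surface, and the type II cadherins are expressed in patterns that differ between regions and cell groups. MicroRNAs lower the levels and translation of transcripts whose 3' untranslated regions pair with their seed.

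The mature sequences of miR-128 in RefSeq (GRCm38.p6) are shown because they are the molecule that separates the groups. Capitals mark the seed, bases 2 to 8, counted from the 5' end.
mmu-miR-128-3p: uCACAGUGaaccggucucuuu
mmu-miR-128-1-5p: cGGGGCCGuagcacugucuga
mmu-miR-128-2-5p: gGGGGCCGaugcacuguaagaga
The 3p arm is the same at both loci, chr1:128202404-128202424 on the plus strand and chr9:112118644-112118664 on the minus strand, and the 5p arms share a different seed. The labels name the mimic only as miR-128. Transcript sequences were not analysed here, so seed matches in the cadherin transcripts are not reported.

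Every value is a log2 expression value, on which a difference of 1 is a 2-fold change. The array medians were 7.45 to 7.49 with miR-128 and 7.40 to 7.54 with miR-Control. One array, miR-Control replicate 3, stood apart: its coordinate on the first principal component was 42.5, against -18.7 to -0.226 for the other 5, and its interquartile range of 2.87 was the lowest, against 2.98 to 3.22. Precision was limited by 3 arrays per group, and the median standard error of a difference was 0.13. Over all 32025 rows, limma with Benjamini-Hochberg adjustment called 0 rows at an adjusted p of 0.05 (0.0%), and 2291 rows had an unadjusted p under 0.05.

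In the type I cadherins, Cdh1, Cdh2 and Cdh4, the groups overlapped. Cdh2 (N-cadherin) had log2 levels of 11.49, 11.34 and 11.46 in miR-128 replicates 1 to 3, against 11.38, 11.45 and 11.21 in miR-Control replicates 1 to 3. The lowest of these 6 values belonged to miR-Control replicate 3, and the groups overlapped. The mean was 11.43 ± 0.08 with miR-128 and 11.34 ± 0.12 with miR-Control (SD, n = 3), a log2 difference of 0.09 with a 95% interval of -0.16 to 0.34.

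Cdh4 (R-cadherin), a close relative of N-cadherin found in retina and brain, had 10.09, 9.80 and 10.28 with miR-128, against 10.38, 10.07 and 9.98 with miR-Control. The groups overlapped across a spread of 0.58 over the 6 arrays, and its log2 difference was -0.08 (95% interval -0.44 to 0.27). It had the largest standard error of the 9 rows, 0.16.

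Cdh1 (E-cadherin), the main cadherin of epithelia, had 6.71, 6.66 and 6.82 with miR-128, against 6.69, 6.64 and 6.92 with miR-Control, a log2 difference of -0.02 (95% interval -0.28 to 0.24). The highest value was that of miR-Control replicate 3. The 9 epithelial markers had mean log2 levels from 5.58 to 7.64 over the 6 arrays. Epcam, an epithelial adhesion molecule, had 6.33 ± 0.04 with miR-128 and 6.33 ± 0.10 with miR-Control (SD, n = 3).

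Among the type II cadherins Cdh11 was the member whose groups were apart. Cdh11, called OB-cadherin and known from osteoblasts and mesenchyme as well as from developing brain, had log2 levels of 7.99, 7.96 and 7.997 in miR-128 replicates 1 to 3, against 7.23, 7.34 and 7.37 in miR-Control replicates 1 to 3. The lowest miR-128 array lay 0.59 above the highest miR-Control array, while the arrays of a group spanned at most 0.14. The mean was 7.98 ± 0.02 with miR-128 and 7.31 ± 0.07 with miR-Control (SD, n = 3). The log2 difference was 0.67 (SE 0.10, 95% interval 0.45 to 0.89), which is a 1.59-fold higher level with an interval of 1.37 to 1.86.

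Over the whole array, 5 rows, Cdh11 among them, had a gap of this size or larger between all miR-128 and all miR-Control arrays, and 71 rows had a difference at least as high. The adjusted p of Cdh11 over all rows was 0.201 in limma, above the threshold, and since the gene was chosen on this contrast the value is descriptive. It was 0.0453 under limma's array weights and ranged up to 0.827, without miR-128 replicate 1. The log2 difference itself stayed between 0.63 and 0.72 over the 12 alternative settings. Of these, the replicate block, the level filter and the intensity trend cannot change a difference and returned the same value.

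Cdh10, a type II cadherin of the nervous system, had 8.81, 8.75 and 8.55 with miR-128, against 8.25, 8.62 and 8.14 with miR-Control. The groups overlapped through miR-Control replicate 2, which lay above miR-128 replicate 3. The mean was 8.70 ± 0.14 with miR-128 and 8.34 ± 0.25 with miR-Control (SD, n = 3), a log2 difference of 0.36 (SE 0.15, 95% interval 0.03 to 0.70, adjusted p = 0.652 in limma). The difference was 0.51 without miR-Control replicate 2 and 0.27 without miR-Control replicate 3.

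Cdh6, which marks regional territories of the embryonic forebrain, had 9.20, 9.26 and 9.32 with miR-128, against 9.20, 9.58 and 9.33 with miR-Control. The miR-Control values enclosed the miR-128 range, and the log2 difference was -0.11 (95% interval -0.38 to 0.17). Without miR-Control replicate 2, the highest of the 6 arrays, it was -0.000571.

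Cdh8, a type II cadherin of neural circuits, had 2 rows. The row NM_001039154 had 5.47, 5.58 and 5.62 with miR-128, against 5.48, 5.43 and 5.68 with miR-Control. The row NM_007667 had 5.09, 5.23 and 5.26 with miR-128, against 5.10, 5.07 and 5.32 with miR-Control. Both had a log2 difference of 0.03, and they followed each other over the arrays with a Pearson r of 0.996 (6 arrays). Transcripts of 1 gene can share probes, so the rows are not independent.

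Cdh13 (T-cadherin) differs from the others in that it is held by a lipid anchor and has no catenin-binding tail. It had 10.40, 10.04 and 10.24 with miR-128, against 9.85, 10.09 and 10.04 with miR-Control. The groups overlapped through miR-128 replicate 2, which lay just below miR-Control replicate 2. The mean was 10.23 ± 0.18 with miR-128 and 9.99 ± 0.13 with miR-Control (SD, n = 3), a log2 difference of 0.24 (SE 0.13, 95% interval -0.05 to 0.53), which was 0.15 without miR-128 replicate 1.

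**Figure D1:**
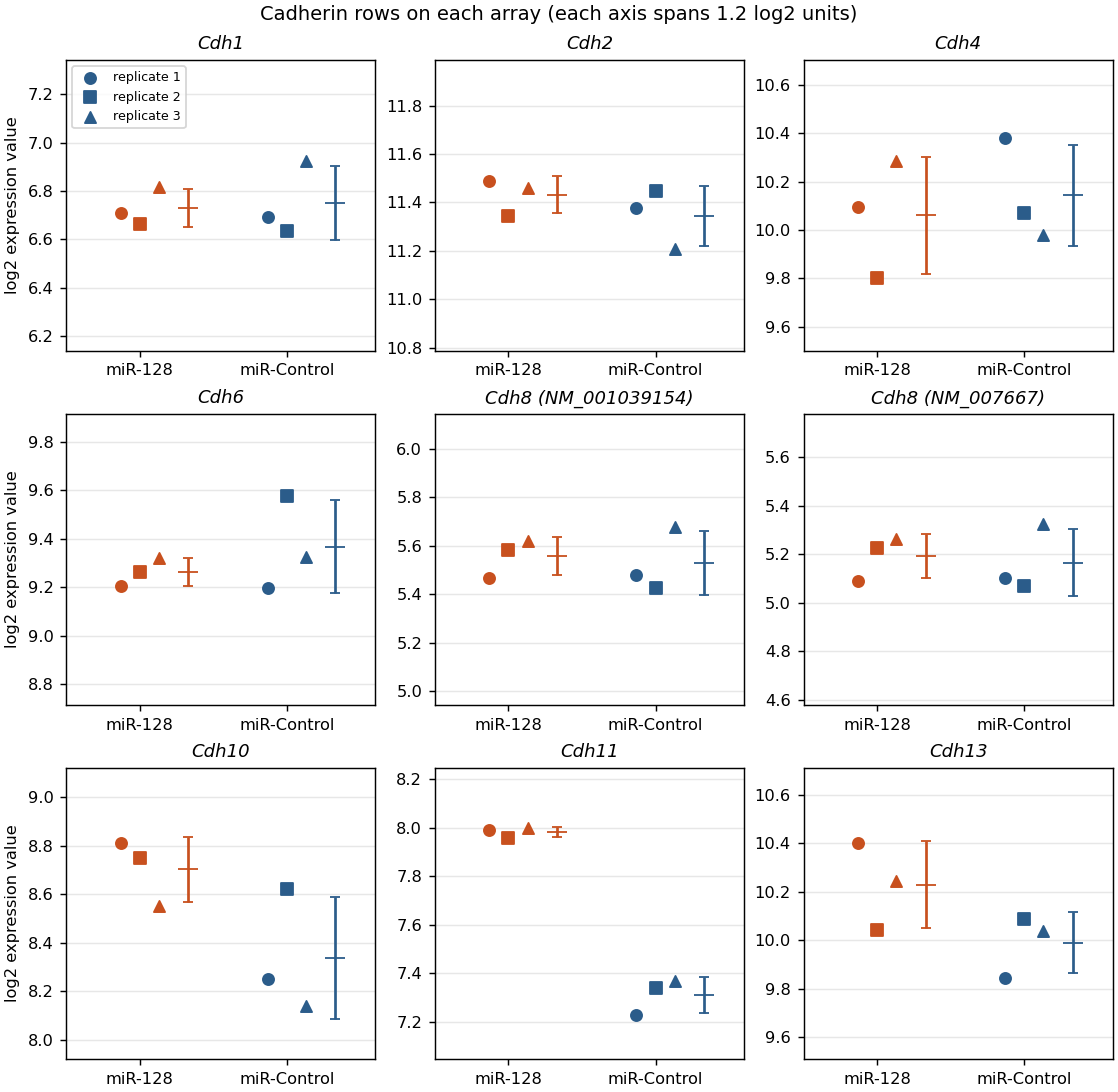
Log2 expression value (vertical axis, 1.2 log2 units in each panel) of the 9 cadherin rows on each array, with miR-128 in orange and miR-Control in blue. Points are arrays, their shapes the replicate numbers, and the bars give mean ± SD of 3 arrays; the groups are apart only in the Cdh11 panel, by 0.59.

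Of the 9 rows, 1 had all miR-128 arrays above all miR-Control arrays, against 6.98% of all rows, and 0 had them below, against 4.87%. An unadjusted p under 0.05 was found for 2 rows, Cdh10 and Cdh11, both higher, against 4.04% of all rows higher and 3.11% lower. The rows were chosen with this contrast known, and nothing is read from these shares. By gene, 5 of 8 were higher and 3 lower with a median log2 difference of 0.06, beside a median of 0.02 over all 20263 named genes, of which 56.2% were higher. After quantile normalization 4 of 8 were higher with a median of 0.04, and over the alternatives the count higher ran from 4 to 7. Without Cdh11, the differences of the other 8 rows ran from -0.11 to 0.36, and 7 of those 8 intervals held 0.

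A level on an array depends on the probes as well as on the transcript, so the levels of different cadherins cannot be ordered against each other. As a description of where the rows stand in the table, the Cdh2 row was at or above 97.4% of all rows, Cdh13 88.6%, Cdh4 88.6%, Cdh6 77.8%, Cdh10 65.5% and Cdh11 52.9%. The Cdh1 row was at or above 36.9%, and the Cdh8 rows 17.3% and 13.4%. No detection p was used, so it is not known which of the lower rows were above background. Expression of Cdh1 and Cdh8 in these progenitors is therefore not shown by their rows. Nor is expression of Cdh11 in the control cells shown. Its miR-Control mean was 7.31, beside a median row level of 7.46, which is not a detection limit. In a bulk sample a higher level per cell and more cells of a kind cannot be told apart.

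Because Cdh11 was read on the same arrays as the other cadherins, it was also set against each of them within the array. Only a shift shared equally by all rows of an array drops out this way. A shift that differs with level stays in. In miR-Control replicate 3 the median offset from the other controls was 0.18 below the median row level and -0.11 above it. Cdh11 minus Cdh2 was -3.50, -3.39 and -3.46 with miR-128, against -4.15, -4.11 and -3.84 with miR-Control. All 3 miR-128 arrays lay above all 3 miR-Control arrays, by 0.34 at the closest. The change of this within-array difference was 0.58, and for the other rows it was 0.69 with Cdh1, 0.75 with Cdh4, 0.78 with Cdh6, 0.64 with both Cdh8 rows and 0.43 with Cdh13.

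The exception was Cdh10. Cdh11 minus Cdh10 was -0.82, -0.79 and -0.55 with miR-128, against -1.03, -1.29 and -0.77 with miR-Control. The groups overlapped through miR-Control replicate 3 only, which lay 0.05 above the lowest miR-128 array. Replicates 1 and 2 of miR-Control lay below every miR-128 array. The offset of miR-Control replicate 3 from the mean of the other controls was -0.30 in Cdh10 and 0.08 in Cdh11. These within-array values show unequal change between rows and use the contrast that chose the genes, so they carry no test.

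**Figure D2:**
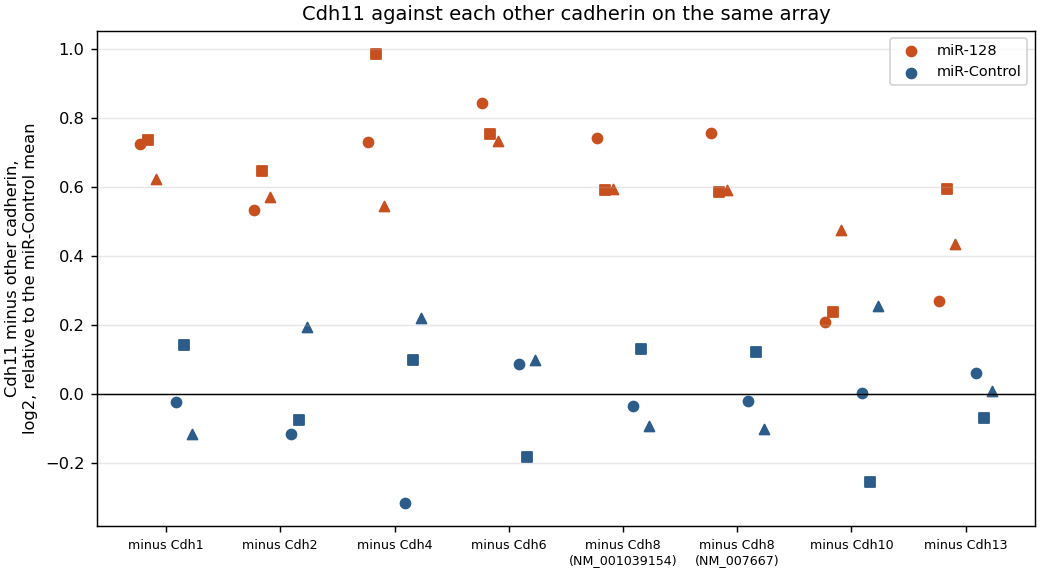
Cdh11 minus each other cadherin on the same array, in log2 units (vertical axis), shifted so that the miR-Control mean is 0, with miR-128 in orange and miR-Control in blue and shapes for replicates 1 (circle), 2 (square) and 3 (triangle). The groups are apart against every row but Cdh10, where miR-Control replicate 3 lies among the miR-128 arrays.

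The remaining Cdh genes of the table were 15 genes with 16 rows. None was called and 0 of 16 rows had an unadjusted p under 0.05 in limma, and their log2 differences lay between -0.10 and 0.15, with every 95% interval holding 0. By gene, 9 were higher and 6 lower, with a median of 0.05, which was -0.00333 without miR-Control replicate 2. The groups were apart in 1 of the 16 rows, with miR-128 above, against 6.98% of all rows. This was Cdh16, a kidney cadherin, with 6.68 ± 0.08 with miR-128 and 6.53 ± 0.06 with miR-Control (SD, n = 3) and a log2 difference of 0.15 (adjusted p = 0.865 in limma).

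The row of Cdh20, a type II cadherin, was at or above 97.9% of all rows. It had 11.64, 11.66 and 11.53 with miR-128, against 11.38, 11.57 and 11.61 with miR-Control. The groups overlapped, with a difference of 0.09 (95% interval -0.15 to 0.34). Cdh22, another type II gene of brain, had a difference of -0.09 (95% interval -0.42 to 0.24), and Cdh5 (VE-cadherin), the cadherin of blood vessel endothelium, had -0.04 (95% interval -0.31 to 0.22). Taken by structural class, the 12 type II genes other than Cdh11 had 7 higher and 5 lower with a median of 0.02, and the 5 type I genes had 3 higher and 2 lower with a median of 0.05.

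**Figure D3:**
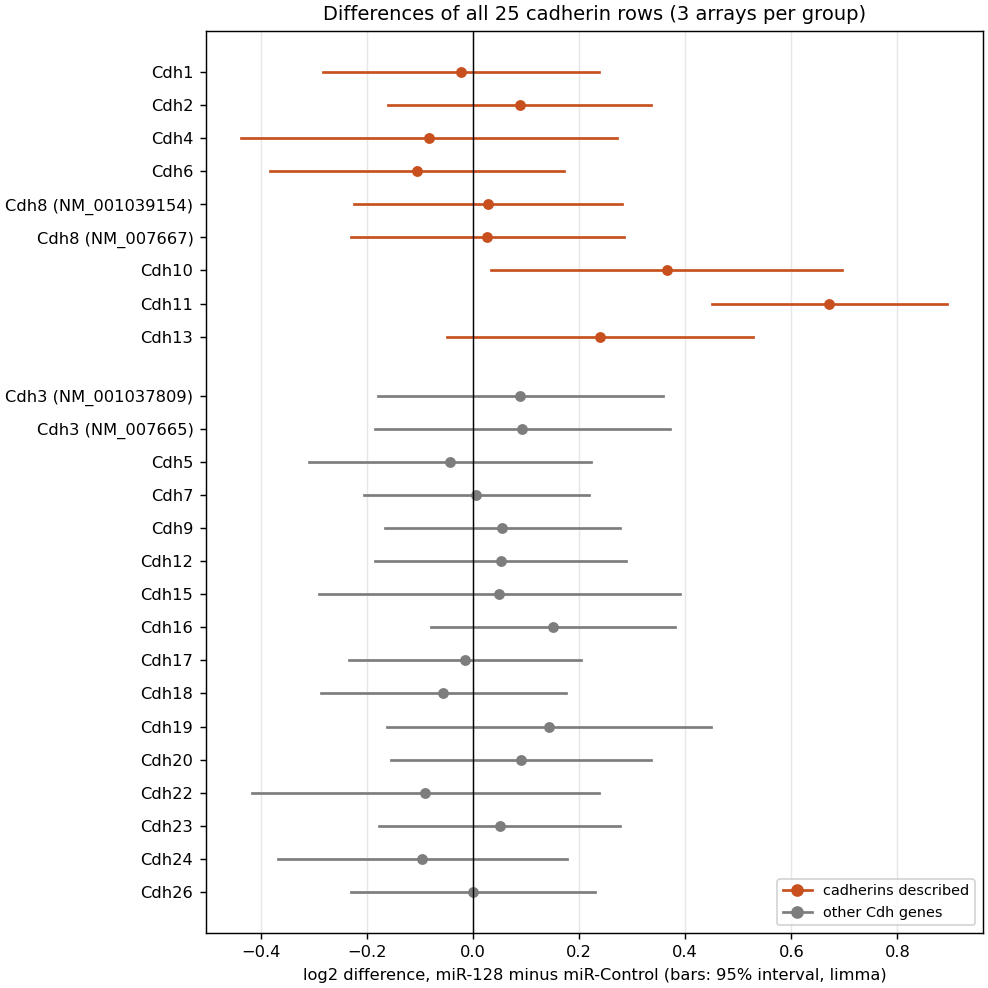
Log2 difference of miR-128 minus miR-Control (horizontal axis) for all 25 rows of 23 Cdh genes, points for the estimate and bars for the 95% interval of limma (3 arrays per group). The cadherins described are in orange and the other Cdh genes in grey; the intervals of Cdh11 and Cdh10 do not reach 0 and the other 23 do.

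Several of these genes lie side by side. In the order of protein-coding genes of the RefSeq table, Cdh11 has Cdh8 on one side and Cdh5 on the other, and Cdh1 lies next to Cdh3. The neighbours of Cdh11 had log2 differences of 0.03 (Cdh8, row of higher level) and -0.04 (Cdh5), with overlapping groups in both. Cdh6 and Cdh10 both have Cdh9 as a neighbour, and Cdh10 has Cdh12 on its other side, with differences of 0.06 for Cdh9 and 0.05 for Cdh12 and overlapping groups.

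Over all rows, the median offset of miR-Control replicate 3 from the other controls was 0.18 below the median row level and -0.11 above it. The first was visible in the cadherins, whereas cadherin rows above that level went both ways. Of the 15 cadherin rows below the median row level of 7.46, this array was the highest of the 3 controls in 12 and the lowest in 1, against 67.4% of all rows below that level in which it was highest. Of the 10 cadherin rows above it, this array was the highest in 4 and the lowest in 4, against 22.0% of all rows above that level in which it was highest. It lay above the mean of the other controls by 0.26 in Cdh1 and by 0.24 in the Cdh8 row NM_007667. Among the rows above the median level its offset was -0.21 in Cdh2, -0.25 in Cdh4, -0.30 in Cdh10, -0.29 in Cdh22 and -0.06 in Cdh6, and it was 0.49 in Cdh15, 0.26 in Cdh24, 0.13 in Cdh20 and 0.07 in Cdh13. In Cdh11 the offset was 0.08, and without this array the Cdh11 difference was 0.70.

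**Figure D4:**
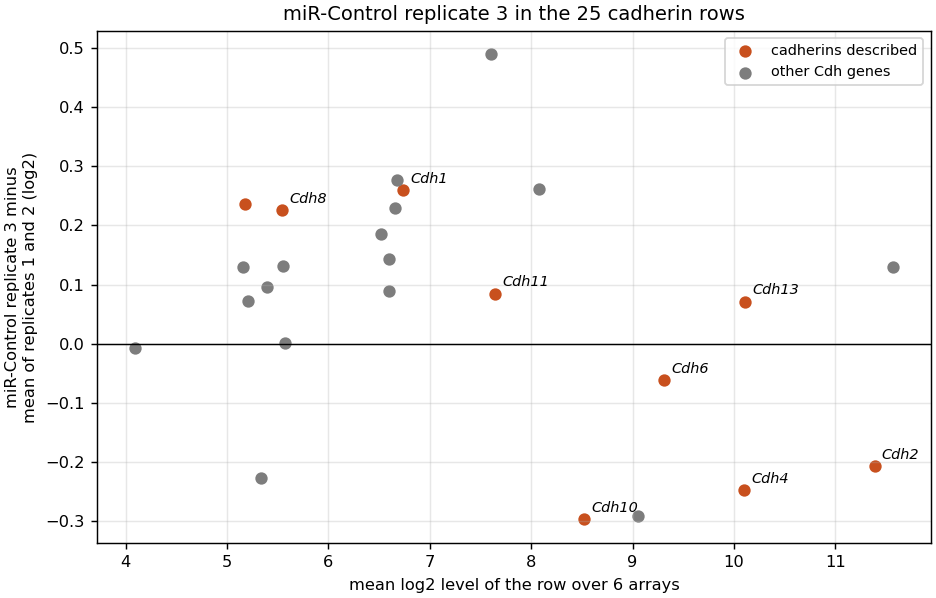
Value of miR-Control replicate 3 minus the mean of miR-Control replicates 1 and 2 (vertical axis, log2) against the mean log2 level over 6 arrays (horizontal axis) for the 25 cadherin rows, with the cadherins described in orange and the other Cdh genes in grey. Most rows below the median level of 7.46 lie above 0, and rows above it lie on both sides, from -0.30 in Cdh10 to 0.49 in Cdh15.

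The partners of the cadherins were followed in lists of known function, each gene by its row of highest mean. Over the 14 lists of partners, related adhesion genes and cell type markers, 136 genes were measured and 0 were called (lowest adjusted p 0.416 in limma, for Fat3). An unadjusted p under 0.05 was found for 12 of the 136 genes higher and 5 lower, where all named genes gave 3.74% higher and 3.39% lower.

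Catenins and proteins that tie cadherin junctions to actin were evenly split, 10 of 20 higher and 10 lower, with a median of 0.01 and 0 called. Ctnnb1 (beta-catenin), which binds the cadherin tail, differed by 0.16 (95% interval -0.13 to 0.46), Ctnnd1 (p120-catenin, which keeps cadherins at the surface) by 0.12, its neural relative Ctnnd2 by 0.27 and Jup (plakoglobin) by 0.30, with adjusted p of 0.748 to 0.913 in limma and overlapping groups in each.

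Ctnna1 (alpha-E-catenin), which couples beta-catenin to actin, had 10.61 ± 0.18 with miR-128 and 10.996 ± 0.29 with miR-Control (SD, n = 3), a log2 difference of -0.39 (SE 0.16, adjusted p = 0.675 in limma), with overlapping groups. Its neural form Ctnna2 differed by 0.10. Actn1 (alpha-actinin) had 8.04 ± 0.17 with miR-128 and 8.31 ± 0.02 with miR-Control (SD, n = 3), a difference of -0.27 (adjusted p = 0.684 in limma), and it was the 1 gene of the 20 whose groups were apart, below the controls, where 5.27% of named genes were.

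Nectins, adhesion molecules that gather at the same junctions, were higher in 3 of 4 genes with a median of 0.14 and 0 called. The groups were apart in 2 of them, both with miR-128 above, where 6.87% of named genes were. Nectin3 differed by 0.21 (adjusted p = 0.777 in limma), Nectin4 by 0.14 and Nectin2 by 0.14.

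Genes that cut or mature cadherins gave 7 of 10 measured genes higher, with a median of 0.04 and 0 called. Over the alternatives the count higher ran from 5 to 8 and the median from -0.00194 to 0.09. Adam10, the protease that sheds N-cadherin, had 11.30 ± 0.11 with miR-128 and 11.28 ± 0.16 with miR-Control (SD, n = 3), a difference of 0.02 (95% interval -0.25 to 0.29). The gamma-secretase genes Psen2 and Ncstn differed by 0.25 and 0.18, and Aph1b by -0.14, with adjusted p of 0.752 to 0.901 in limma.

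Transcription factors linked to the loss of Cdh1 in epithelial-mesenchymal transition, directly or indirectly, gave 7 of 10 higher and 0 called. Their median was 0.09, or 0.19 without miR-Control replicate 3. Groups were apart in 3 of the 10, all with miR-128 above, where 6.87% of named genes were. Twist2 differed by 0.37 and Foxc2 by 0.35 (adjusted p of 0.630 and 0.698 in limma), both with groups apart. Zeb1, expressed in neural progenitors, had 11.75 ± 0.10 with miR-128 and 11.58 ± 0.08 with miR-Control (SD, n = 3), a difference of 0.17 with groups apart, Zeb2 differed by 0.22 and Snai2 by 0.06.

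Targets of Wnt signalling, which shares beta-catenin with cadherins, gave 10 of 12 higher, and 9 of 12 after quantile normalization, with a median of 0.11 and 0 called. Axin2, a feedback inhibitor, differed by 0.17, Nkd1 by 0.25 and Znrf3 by 0.19, with overlapping groups. Ccnd1 (cyclin D1) was lower, with 12.30 ± 0.06 with miR-128 and 12.50 ± 0.08 with miR-Control (SD, n = 3), a difference of -0.21 (adjusted p = 0.741 in limma). It was the 1 gene of the 12 with groups apart, below the controls, where 5.27% of named genes were.

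Larger relatives of the cadherins were followed in 2 lists, to be read beside the 56.2% of all named genes that were higher. Of the Fat, Dachsous and Celsr genes, giant cadherins of planar polarity and tissue growth, 8 of 8 measured were higher, with a median of 0.20, but 7 of 8 after median centring and 6 of 8 after quantile normalization; 0 were called. Fat3 had 9.33 ± 0.14 with miR-128 and 8.83 ± 0.16 with miR-Control (SD, n = 3), a difference of 0.50 (SE 0.12, adjusted p = 0.416 in limma) with groups apart. Dchs1, a binding partner of Fat4, differed by 0.41 with overlapping groups, and Fat1 by 0.21 with groups apart. Groups were apart in 2 of the 8, both with miR-128 above, where 6.87% of named genes were.

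Of the delta protocadherins, non-clustered protocadherins of brain, 8 of 9 measured genes were higher, but 6 of 9 after median centring and 7 of 9 after quantile normalization, with a median of 0.16 and 0 called. That median was 0.07 when miR-128 replicate 3 was left out and 0.26 when miR-Control replicate 3 was. Pcdh19 had 8.38 ± 0.16 with miR-128 and 7.98 ± 0.05 with miR-Control (SD, n = 3), a difference of 0.40 (SE 0.11, adjusted p = 0.478 in limma) with groups apart. Pcdh17 differed by 0.33 with groups apart, and Pcdh9 by 0.36 with overlapping groups. Groups were apart in 2 of the 9, both with miR-128 above, where 6.87% of named genes were.

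Markers of cell types were read beside these values. Of 12 neural progenitor markers 7 were higher and 5 lower with a median of 0.06, and 0 were called. The transcription factors Sox2 and Pax6 were at 12.04 ± 0.33 and 8.85 ± 0.04 with miR-128, against 11.94 ± 0.22 and 8.79 ± 0.09 with miR-Control (SD, n = 3). The filament gene Nes differed by -0.30 (95% interval -0.72 to 0.12), Fabp7, a radial glia gene, by -0.30, Hes5 by 0.33 and Notch1 by 0.28. Fabp7 was the 1 gene of the 12 with groups apart, below the controls, where 5.27% of named genes were.

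Since Cdh11 is also a gene of mesenchyme, the 11 mesenchymal and vascular markers are given beside it. Their list means ran from 6.59 to 6.75 over the miR-128 arrays and from 6.59 to 6.76 over the miR-Control arrays, with a median difference of 0.02, which was 0.08 without miR-128 replicate 1, -0.0129 after median centring and -0.0051 after quantile normalization. Of the 11 genes 0 had groups apart, where 6.87% of named genes had them apart above and 5.27% below. The collagens Col1a1, Col1a2 and Col3a1 differed by 0.12, 0.09 and 0.07 (adjusted p of 0.932 to 0.972 in limma). Epithelial markers were higher in 6 of 9, but in 4 of 9 after median centring or quantile normalization. Their median was 0.02, but 0.15 without miR-Control replicate 3 and -0.03 after quantile normalization. They included Cldn3 at 0.19, Cldn7 at 0.18 and Krt18 at 0.14, and lower Krt19 at -0.07 and Cldn4 at -0.07. Microglial markers were higher in 6 of 6, but in 4 of 6 after median centring or quantile normalization and in 3 of 6 without miR-Control replicate 1. Their median was 0.05, and they included Aif1 at 0.16, C1qa at 0.14 and Csf1r at 0.06. Their mean levels were at most 7.31, below the median row level of 7.46, and their expression is not shown by these rows.

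Of the glial markers none was called. Of 8 oligodendrocyte lineage markers 7 were higher, with a median of 0.24, and 3 had groups apart, all above, where 6.87% of named genes were. Their list means ran from 8.68 to 8.82 over the miR-128 arrays and from 8.46 to 8.58 over the miR-Control arrays. Cspg4, a proteoglycan of progenitors, differed by 0.35 (adjusted p = 0.649 in limma) and Mbp, a myelin protein gene, by 0.25.

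Of 7 astrocyte markers 5 were higher, with a median of 0.14, which was 0.09 without miR-Control replicate 1 or without miR-128 replicate 3. Groups were apart in 4, above in 2, where 6.87% of named genes were, and below in 2, where 5.27% were. The glutamate transporter gene Slc1a2 differed by 0.47 and S100b by 0.32, and Gja1, a gap junction gene, by -0.29. Of 10 neuronal markers 5 were higher and 5 lower, with Dcx at 0.24, Elavl4 at 0.14 and Gap43 at -0.41. Among these 10, 1 was apart above (Dcx), where 6.87% of named genes were, and 1 below (Gap43), where 5.27% were. The part of any cell type in the Cdh11 value was not tested.

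**Figure D5:**
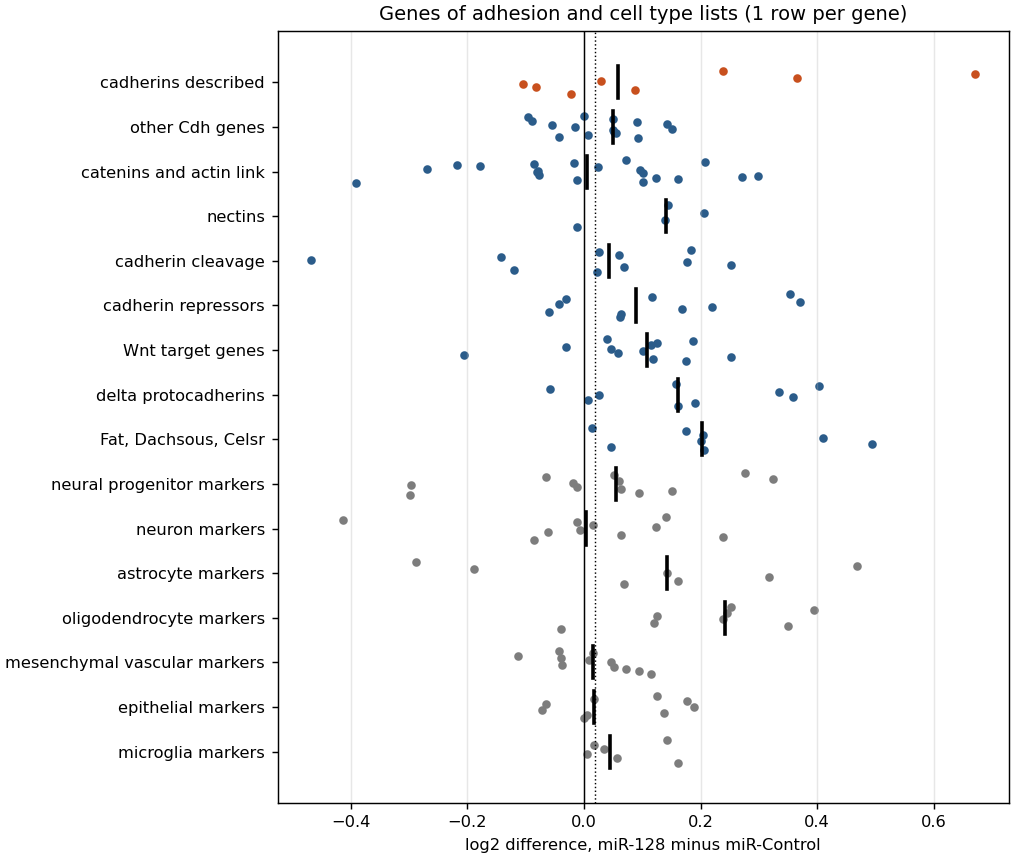
Log2 difference of miR-128 minus miR-Control (horizontal axis) for each gene of the cadherins described (orange), the other adhesion and signalling lists (blue) and the cell type markers (grey), with a black bar at each list's median and a dotted line at the median of all named genes, 0.02. Cdh11, at 0.67, is the point farthest to the right.

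Genes with the pattern most like that of Cdh11 over the 6 arrays were sought by Pearson r among 3934 genes outside the lists whose row lay above the median level and spanned at least 0.5 log2 units. The 5 most like it were Fam114a1 (r = 0.984), Ppp2r2b (r = 0.981), Grk3 (r = 0.981), Dlgap1 (r = 0.977) and Kcnj10 (r = 0.975), and 58 of the candidates had an r over 0.9. All 5 had groups apart with miR-128 above, with differences of 0.43 to 0.70. Among named genes 6.87% were apart above, but a choice by likeness to Cdh11 favours such rows, so nothing is read from this count. With 6 arrays in 2 groups, r mainly reflects the step between the groups, so it is a description and carries no p. Kcnj10, an inward rectifier potassium channel of glia, had 8.45, 8.36 and 8.56 with miR-128, against 7.69, 7.66 and 7.92 with miR-Control.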

How the data were processed

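The deposited values are log2 expression values per RefSeq transcript row, for which the submitters' processing notes name affy and RMA without versions. RMA evens out array distributions and tends to shrink fold changes. The deposited arrays still differed, with interquartile ranges from 2.87 in miR-Control replicate 3 to 3.22 in miR-Control replicate 2. How probes were grouped, and on which genome build, is not given in the sources used here. Rows were named by unversioned accession through the RefSeq gene table of GRCm38.p6, used for names and gene order only: 25343 of 32025 rows matched. Groups and replicate numbers come from the titles. Rows were tested with limma 3.58.1 (R 4.3.3, lmFit and eBayes), two-sided, unpaired, unfiltered, with Benjamini-Hochberg adjustment over all rows. The code was also run on simulated rows that lacked the shift of miR-Control replicate 3. How often changes of the size of Cdh11 are found is not reported here. Differences are miR-128 minus miR-Control, intervals are limma's 95%, and ± is the SD of 3 arrays.

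The members, lists and tests were chosen with earlier results of these data known. Of 162 listed genes 158 had a row. Genes named are the 8 members, the 3 of smallest p in each list, preset cadherin partners and markers whatever their values, and the 5 rows most like Cdh11, except that a gene this rule picks may be not reported here; Cdh15, Cdh16, Cdh20, Cdh22, Cdh24, Krt19, Cldn4 and the neighbouring genes were picked for the text after their values were seen. Depth does not apply to arrays. Alternatives were replicate block, leaving out each array, quantile normalization, median centring, a level filter, an intensity trend, array weights, unmoderated statistics and, for lists, the mean of a gene's rows.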

Additional observations from a re-analysis of the deposited data

How the results depend on the processing

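Of 32025 rows, 0 were called by limma, and 4 were called when only the 16012 rows above the median level were tested and 24 under array weights; Cdh11 was 1 of the 24 and none of the 8 cadherins was among the 4. The lowest adjusted p elsewhere was 0.0750, without miR-Control replicate 1. The Cdh11 difference was 0.67 with the replicate block, with an adjusted p of 0.238, and 0 rows were called with that block; same-numbered arrays correlated in their deviations by -0.00278, 0.17 and 0.05, so the numbers were not taken as pairs. Leaving out 1 array gave 0.63 to 0.70. For the other 8 rows, 93 alternative values moved by less than 1 SD, and 13 changed sign, all in Cdh1, Cdh4 and Cdh8, whose intervals hold 0. These counts include the replicate block, level filter and intensity trend, which cannot change a difference. List medians changed sign in 15 of 160 alternatives, over 6 of 16 lists, where the replicate block is counted though it cannot change a median. The mean of the rows of a gene gave 0.06 for the cadherin median. Signal over background is unknown.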
